A study of Mus musculus with 4 samples.

Results

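Hox genes encode homeodomain transcription factors and lie in 4 clusters, Hoxa, Hoxb, Hoxc and Hoxd. The 38 Hox genes described here, of 32285 features counted, were taken by their symbols, and their transcripts were compared between diaphragm and quadriceps in classes of cells gated by markers that include no Hox gene. The cells were cryopreserved mononuclear cells from the quadriceps or the diaphragm of WT or mdx5cv mice at 14 weeks of age. The mdx5cv mice carry a mutation of the dystrophin gene Dmd and model Duchenne muscular dystrophy. Each of the 4 groups (WT quadriceps, mdx5cv quadriceps, WT diaphragm, mdx5cv diaphragm) was 1 library of 3' tags counted as unique molecular identifiers (UMIs), and the labels do not give the number of animals in each. No difference below therefore has a replicate check within its group, and no p-value was computed.

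Genes at the same place in different clusters are paralogues and share a number, from 1 at the end expressed first and nearest the head to 13 at the end expressed last and nearest the tail. In the embryo this order along the chromosome matches the order of expression along the body axis, and mesenchymal cells of the adult keep part of that address. The diaphragm is built from cells of cervical origin, whereas the quadriceps belongs to the hindlimb, at the level of the lumbar segments. Paralogues 1 to 4 are best known from the hindbrain and neck, paralogues 5 to 8 from the lower neck and thorax, and paralogues 9 to 13 from the lower trunk, limbs and tail.

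On GRCm38 the Hoxa cluster members spanned 98.5 kb at chr6:52162417-52260880, the Hoxb members 174 kb at chr11:96194316-96368256, the Hoxc members 116 kb at chr15:102921103-103036852 and the Hoxd members 96.8 kb at chr2:74668310-74765142. RefSeq promoters (GRCm38.p6, 250 bases before to 50 after a start) were matched for 22 of the 38 genes, which had 24 promoters. The Hox promoters held a median of 14.5 CpG dinucleotides, against 7 over all 32851 promoters of that length. The letters TGATTNAT, a form of the site that Hox proteins share with Pbx partners, were found on either strand in 2 of the 24 Hox promoters and in 3.22% of all promoters. The letters TTTATG, a form of the site of the Cdx factors, which act upstream of Hox genes in the embryo, were found in 5 of the 24 and in 11.85% of all. Each motif was counted on its own. Matches of letters are a description and not evidence of binding. The promoters of 3 neighbours on the minus strand of chromosome 6 are shown because the Hoxa cluster passed between them from a moderate to a very large difference between the muscles: Hoxa7 at chr6:52218524-52218823, Hoxa9 at chr6:52227321-52227620, and Hoxa10 with starts at chr6:52240805-52241104 and chr6:52234890-52235189. Capitals mark CpG, of which they held 9, 4, 12 and 21 in that order.
Hoxa7: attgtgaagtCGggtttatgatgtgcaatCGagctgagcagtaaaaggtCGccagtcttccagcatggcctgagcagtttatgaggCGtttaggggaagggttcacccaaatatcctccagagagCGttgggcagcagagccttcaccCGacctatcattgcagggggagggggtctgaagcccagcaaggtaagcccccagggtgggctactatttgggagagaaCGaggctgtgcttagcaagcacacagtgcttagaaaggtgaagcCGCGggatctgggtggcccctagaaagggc
Hoxa9: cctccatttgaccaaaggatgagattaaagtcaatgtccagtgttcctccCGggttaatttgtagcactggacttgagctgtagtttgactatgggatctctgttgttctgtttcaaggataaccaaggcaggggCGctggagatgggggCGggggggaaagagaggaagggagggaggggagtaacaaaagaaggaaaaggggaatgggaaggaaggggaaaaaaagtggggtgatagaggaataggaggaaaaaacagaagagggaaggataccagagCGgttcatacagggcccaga
Hoxa10, first start: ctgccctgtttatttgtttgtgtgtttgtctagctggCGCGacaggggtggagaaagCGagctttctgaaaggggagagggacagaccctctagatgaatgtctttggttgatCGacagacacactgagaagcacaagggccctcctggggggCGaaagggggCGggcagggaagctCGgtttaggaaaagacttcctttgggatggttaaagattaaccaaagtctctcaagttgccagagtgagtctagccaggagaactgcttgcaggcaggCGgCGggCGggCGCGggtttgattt
Hoxa10, second start: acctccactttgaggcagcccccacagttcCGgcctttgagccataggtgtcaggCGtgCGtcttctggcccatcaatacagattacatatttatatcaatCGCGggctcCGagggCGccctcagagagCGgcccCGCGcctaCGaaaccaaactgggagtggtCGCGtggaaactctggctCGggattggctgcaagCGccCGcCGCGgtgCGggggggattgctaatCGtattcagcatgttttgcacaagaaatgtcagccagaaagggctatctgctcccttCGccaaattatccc

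The libraries held 18837891 to 62780685 UMIs over all barcodes, and 4911, 8334, 7516 and 7402 barcodes passed as cells in the order WT quadriceps, mdx5cv quadriceps, WT diaphragm, mdx5cv diaphragm, with median depths of 2055 to 5328.5 UMIs. Values for 4 libraries are given in this order throughout. The gate assigned 987, 1580, 6282 and 3121 cells to fibroblasts, the resident mesenchymal cells of muscle that include the fibro/adipogenic progenitors. Their 10 fibroblast markers, Pdgfra and Dcn among them, summed to 25950 to 38962 CPM, the UMIs of a gene scaled to a fixed total per class and library, while the summed markers of any other class stayed at or below 311 CPM. Mesothelial markers were at 8.51, 0.702, 85.6 and 44.1 CPM, and their part in the fibroblast results was not tested. The hindlimb factors Pitx1 and Tbx4 were read as a check of the muscle labels. Pitx1 had 19 and 28 UMIs in quadriceps fibroblasts and 0 in both diaphragm libraries, and Tbx4 had 15 and 99 against 1 and 1. Tbx5, known as the forelimb factor, was also higher in quadriceps fibroblasts, at 27.2, 10.4, 2.82 and 1.31 CPM. Dmd was at 37.6, 27.8, 41.5 and 32.2 CPM in fibroblasts, and a 3' tag does not show whether the transcript carries the mutation. Pairs of libraries shared 5 to 17 cell barcodes.

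Of the 38 genes, 3 (Hoxa13, Hoxc12, Hoxd12) had 0 UMIs in all cells and 7 (Hoxa11, Hoxb1, Hoxb13, Hoxc13, Hoxd1, Hoxd10, Hoxd11) had 1 to 9, and 27 had at least 10 in fibroblasts. A gene entered a comparison with at least 10 UMIs pooled over its 2 libraries, and was called higher at 2-fold or more with a 95% interval of the CPM ratio that excluded 1, on the ratio as observed, so that a gene at 0 UMIs on 1 side needed only the interval. Intervals, in parentheses, are exact and cover counting error only. For the printed fold, a side with 0 UMIs was set to 3 UMIs, which makes it a lower bound.

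Fibroblasts of the 2 muscles carried complementary ranges of Hox transcripts. Diaphragm fibroblasts had more of the low-numbered paralogues of the Hoxa, Hoxb and Hoxd clusters, and quadriceps fibroblasts had more of the high-numbered paralogues of Hoxa and Hoxc, among them Hoxa10 and Hoxc10, of which not a single UMI was found in the 6282 WT and 3121 mdx5cv diaphragm fibroblasts. In WT, 25 members passed the minimum, 12 were called higher in diaphragm and 8 higher in quadriceps. Over all 14799 genes tested, 3.51% were called higher in diaphragm and 8.15% higher in quadriceps. In mdx5cv, 26 passed, 15 were called higher in diaphragm and 9 in quadriceps, against 3.17% and 8.75% of 14811 genes. All 12 and all 8 of the WT calls were repeated in mdx5cv, whose libraries are separate, and no member was called in opposite ways. Of the 24 members with a value in both genotypes, 24 had the same direction. The share of all genes with a repeated call or direction is not given for any class, so these counts have no background. The median log2 ratio of diaphragm to quadriceps was 1.23 over the WT members and 1.37 over the mdx5cv members, against -0.14 and -0.16 over all genes tested.

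**Figure D1:**
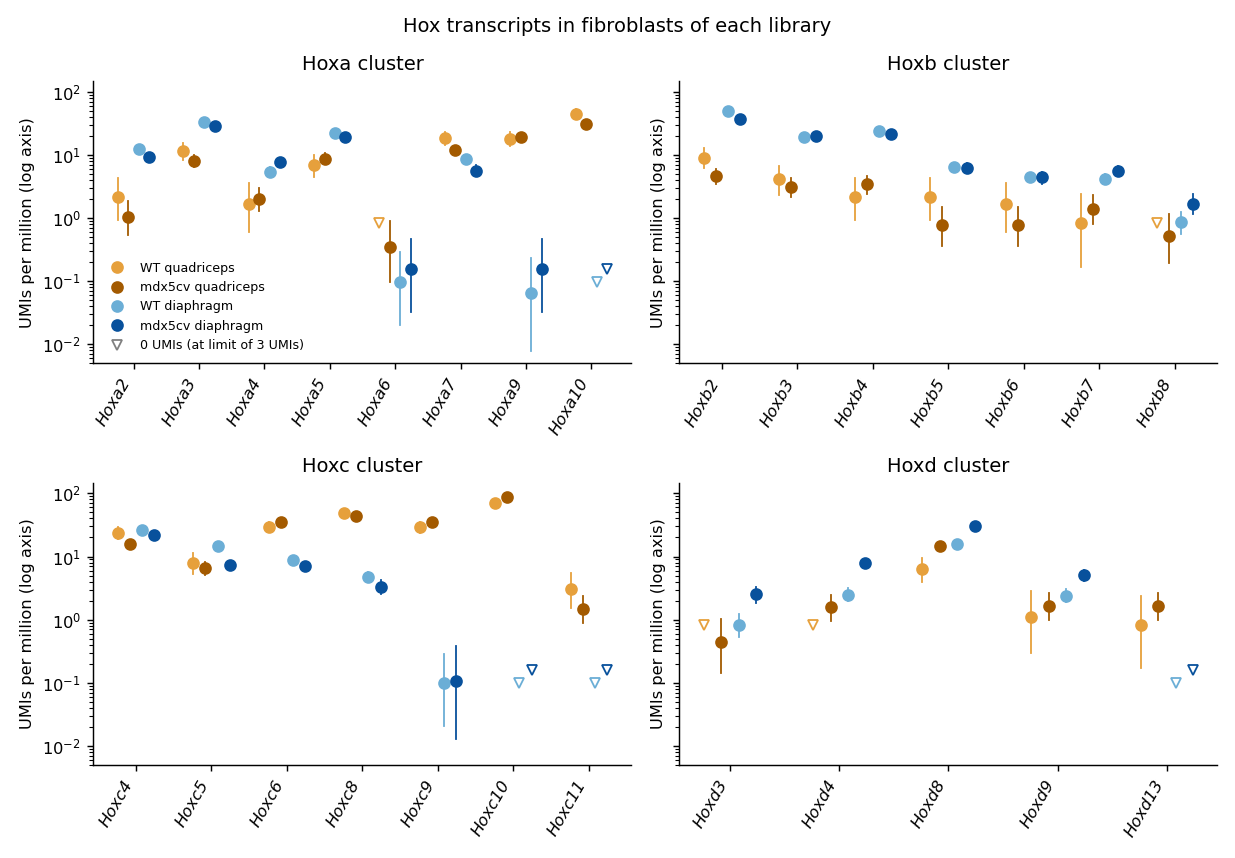
Level of each Hox gene with at least 10 UMIs in fibroblasts, in CPM on a log axis, for the 4 libraries and in 1 panel per cluster. Circles with bars are values with exact 95% counting intervals, and open triangles mark 0 UMIs, placed at the limit of 3 UMIs. Hoxa9, Hoxa10, Hoxc9, Hoxc10 and Hoxc11 sit high in both quadriceps libraries and at or near the limit in both diaphragm libraries.

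The Hoxa cluster changed direction along its length. Hoxa2, which patterns the second pharyngeal arch, was at 2.19, 1.05, 12.6 and 9.17 CPM, 5.75-fold (2.89 to 13.4) higher in diaphragm in WT and 8.71-fold (4.86 to 17.2) in mdx5cv. Hoxa3, needed for the thymus and parathyroid, was at 11.5, 8.08, 33.3 and 29.2 CPM, a 2.89-fold and a 3.61-fold excess in diaphragm. Both diaphragm libraries lay above both quadriceps libraries for each of these genes. Hoxa4, a gene of the cervical vertebrae, was at 1.65, 2.02, 5.45 and 7.65 CPM, 3.31-fold and 3.79-fold higher in diaphragm. Hoxa5, which acts in the neck, the lung and the phrenic motor neurons that serve the diaphragm, was at 6.86, 8.78, 21.9 and 19.1 CPM, 3.19-fold (2.14 to 4.96) and 2.18-fold (1.74 to 2.75) higher there. The sign turned at Hoxa7, a gene of the thoracic segments, which was at 18.4, 11.85, 8.59 and 5.66 CPM and 2.14-fold (1.61 to 2.81) and 2.09-fold (1.61 to 2.72) higher in quadriceps, a call lost in both genotypes under median-of-ratios scaling. Hoxa9, a gene of the limb and lower trunk, was at 17.8, 19.5, 0.0656 and 0.157 CPM. Those values rest on 65, 222, 2 and 3 UMIs, and give 272-fold (72.3 to 2292) and 124-fold (41.9 to 606) more in quadriceps. Hoxa10, which acts in the lumbar segments, the hindlimb and the uterus, had 165 and 350 UMIs in quadriceps (45.3 and 30.7 CPM) and 0 in both diaphragm libraries, at least 460-fold and at least 195-fold lower. The step from a 2-fold to an over 100-fold difference therefore lay between Hoxa7 and Hoxa9, the neighbours whose promoters are printed above.

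The Hoxb cluster was higher in diaphragm from Hoxb2 to Hoxb8 and had no gene called higher in quadriceps in fibroblasts. Hoxb2, which acts with Hoxa2 in the hindbrain, was at 9.05, 4.65, 49.2 and 37.3 CPM, 5.43-fold (3.85 to 7.92) and 8.02-fold (6.06 to 10.8) higher in diaphragm. Hoxb3, a paralogue of Hoxa3, was at 4.12, 3.07, 19.5 and 20.2 CPM, 4.73-fold and 6.57-fold higher. Hoxb4, known for its effect on blood stem cells, was at 2.19, 3.42, 24.2 and 21.4 CPM, 11.03-fold (5.57 to 25.6) and 6.25-fold (4.49 to 8.91) higher. For these 3 genes the diaphragm libraries were several times above either quadriceps library. Hoxb5, involved in placing the forelimb, was at 2.19, 0.790, 6.33 and 6.18 CPM, 2.88-fold and 7.83-fold higher in diaphragm. Hoxb6 was at 1.65, 0.790, 4.43 and 4.40 CPM, 2.69-fold and 5.57-fold higher. Hoxb7 was at 0.823, 1.40, 4.17 and 5.61 CPM, 5.06-fold (1.69 to 24.9) and 3.99-fold (2.35 to 7.24) higher, although its Hoxa paralogue went the other way. Hoxb8 was called in mdx5cv only (3.18-fold, 1.31 to 9.32). In WT it had 0 UMIs in quadriceps and 26 in diaphragm, at least 1.04-fold higher, so that the depth of the quadriceps library could not show such a difference. In barcodes with 10 to 100 UMIs, a measure of free RNA, Hoxb2 was at 8.89, 3.15, 21.02 and 8.68 CPM. The part of free RNA in the low quadriceps values was not tested gene by gene, and the calls for the Hoxb genes held after the estimated free RNA was subtracted.

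In the Hoxc cluster the first genes, Hoxc4 and Hoxc5, were not called between the muscles, and the later ones, from Hoxc6 to Hoxc11, were called higher in quadriceps in both genotypes. Hoxc4 was at 23.3, 15.5, 26.5 and 21.8 CPM, 1.14-fold (0.909 to 1.44) higher in diaphragm in WT and 1.40-fold (1.17 to 1.68) in mdx5cv. Hoxc5, a partner of Hoxa5 in the phrenic motor neurons, was at 7.96, 6.58, 14.6 and 7.29 CPM, 1.83-fold (1.26 to 2.77) higher in diaphragm in WT and 1.11-fold (0.830 to 1.49) in mdx5cv. All 4 values were under 2-fold, and 2 of the intervals excluded 1. The annotated exons of Hoxc5 overlap those of Hoxc6, Hoxc8, Hoxc9 and Hoxc10 on the same strand, so that tags could be split between them. Among these, only Hoxc10 shared a stretch of 90 bases with Hoxc5. Hoxc6, a marker of the upper thorax, was at 29.6, 34.8, 8.86 and 7.02 CPM, 3.35-fold (2.65 to 4.197) and 4.95-fold (4.06 to 6.07) higher in quadriceps. Hoxc8 was at 48.3, 43.5, 4.79 and 3.30 CPM, 10.1-fold (8.05 to 12.6) and 13.2-fold (10.1 to 17.4) higher. Hoxc9, which separates limb from thoracic levels in the spinal cord, was at 29.1, 35.8, 0.0984 and 0.105 CPM. Its 106, 408, 3 and 2 UMIs give 296-fold (98.4 to 1456) and 342-fold (94.0 to 2831). Hoxc10, a gene of the lumbar segments and hindlimb, had 261 and 993 UMIs in quadriceps (71.6 and 87.2 CPM) and 0 in diaphragm, at least 728-fold and at least 554-fold lower. Hoxc11 had 11 and 17 UMIs (3.02 and 1.49 CPM) against 0, at least 30.7-fold and at least 9.49-fold lower in diaphragm.

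The Hoxd cluster had few transcripts of its posterior genes, and Hoxd3, Hoxd4, Hoxd8 and Hoxd9 had higher values in diaphragm. Hoxd4, a gene of the neck, was at 0, 1.58, 2.49 and 7.86 CPM, at least 3.03-fold higher in diaphragm in WT and 4.98-fold (3.04 to 8.62) in mdx5cv. Hoxd8 was at 6.31, 14.8, 15.8 and 30.5 CPM, 2.51-fold (1.65 to 3.999) and 2.06-fold (1.73 to 2.46) higher in diaphragm, opposite in sign to its paralogue Hoxc8. Hoxd9 was at 1.10, 1.67, 2.39 and 5.08 CPM, called higher in diaphragm in mdx5cv (3.05-fold, 1.85 to 5.28) and not in WT (2.18-fold, 0.817 to 8.22). The other paralogues numbered 9 with a value, Hoxa9 and Hoxc9, were over 100-fold lower there. Hoxd3 was called higher in diaphragm in mdx5cv (5.73-fold, 2.29 to 18.4), and in WT its 0 and 25 UMIs allow no fold at these depths. Hoxd3 and Hoxd4 share a stretch of sequence and their exons overlap, so the split of tags between them is uncertain. Hoxa3 overlaps Hoxa4, Hoxa5 and Hoxa6 in annotated exons on the same strand, so that tags could be split between them. No shared stretch of 90 bases was found for these pairs. Hoxd13, the last gene of its cluster and a gene of the digits, had 3 and 19 UMIs in quadriceps and 0 in diaphragm, and was called in mdx5cv (at least 10.6-fold lower in diaphragm). Among the genes with too few UMIs for any fibroblast comparison between muscles were Hoxa6, with 0 to 4 UMIs a library, Hoxb9, with 0 to 3, and Hoxd11, with 0 to 3.

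Across members, the log2 ratio of diaphragm to quadriceps fell with the paralogue number, with a Spearman rho of -0.818 over 24 genes in WT and -0.804 over 26 in mdx5cv (Pearson r -0.763 and -0.727). These coefficients describe genes that share libraries and clusters and are not independent. Within the clusters, rho was -0.893 and -0.964 over 7 Hoxa genes, -0.643 and -0.893 over 7 Hoxb genes, and -0.857 and -0.786 over 7 Hoxc genes. Over 5 Hoxd genes in mdx5cv it was -0.9. The sign changed between paralogues 5 and 7 in Hoxa and between 5 and 6 in Hoxc, but not up to paralogue 8 in Hoxb or 9 in Hoxd.

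**Figure D2:**
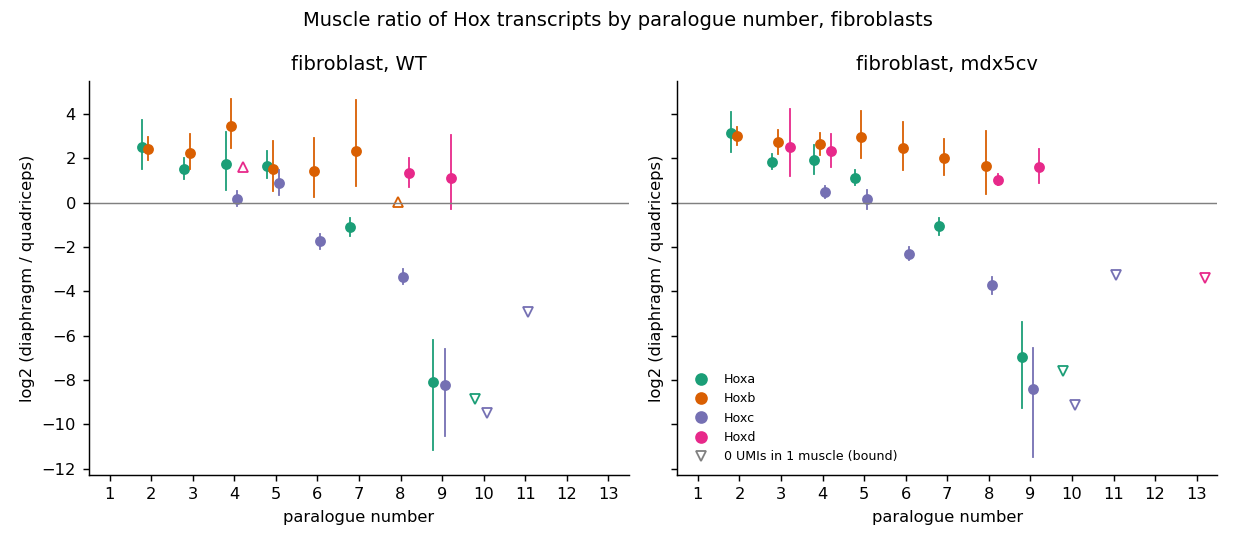
Log2 ratio of diaphragm to quadriceps CPM in fibroblasts against paralogue number, for WT (left) and mdx5cv (right), with points coloured by cluster. Bars are exact 95% counting intervals, and open triangles are bounds where 1 muscle had 0 UMIs. Points fall from above 0 at low numbers to between -3 and -10 at Hoxa9, Hoxa10, Hoxc9, Hoxc10 and Hoxc11, while Hoxb and Hoxd genes up to number 9 stay above 0.

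Summed over members, the Hox transcripts of fibroblasts were at 347, 343, 267 and 253 CPM. The sums were higher in quadriceps (328 to 366 and 332 to 354) than in diaphragm (261 to 273 and 246 to 261). Their makeup differed more. Paralogues 9 to 13 gave 49.2% and 52.1% of the Hox UMIs of quadriceps fibroblasts, and 1.01% and 2.11% of those of diaphragm fibroblasts. Of those 82 and 102 diaphragm UMIs, 73 and 97 were Hoxd9. Paralogues 1 to 4 gave 15.6%, 11.7%, 65.2% and 62.0%, and paralogues 5 to 8 gave 35.2%, 36.2%, 33.8% and 35.9%, nearly the same share in every library. With each cell thinned to 1000 UMIs, 16.8%, 16.1%, 0.334% and 0.769% of fibroblasts had a UMI of paralogues 9 to 13, and 6.08%, 4.87%, 15.97% and 15.86% had one of paralogues 1 to 4. Before thinning the first set of shares was 44.8%, 63.2%, 1.24% and 3.08%. In immune cells, which carry little of these genes, the thinned share with paralogues 9 to 13 was 0.706%, 0.213%, 0% and 0%, at median depths of 3530, 5462, 2820 and 4997.5 UMIs in immune cells and 3479, 5329, 4539 and 4918 UMIs in fibroblasts. In diaphragm, 0 of 827 and 0 of 3366 immune cells allow shares of up to 0.445% and 0.110% by the exact interval. The UMIs of these paralogues in diaphragm fibroblasts were mostly Hoxd9.

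Low and high paralogues were found in the same quadriceps fibroblasts. Of WT quadriceps fibroblasts with a UMI of paralogues 1 to 4, 44.3% also had one of paralogues 9 to 13, against 44.9% of those without. In mdx5cv quadriceps the shares were 72.2% and 60.4%, where the cells with low paralogues were also deeper (median 7040 against 5004 UMIs). There were 77 and 267 quadriceps fibroblasts with UMIs of both groups. The part of depth and of free RNA in these shares was not tested.

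The muscle difference was present in fibroblast states as well. Progenitor-like fibroblasts (at least 2 of Pi16, Dpp4, Sema3c, Efhd1, Cd55 and Cd248 detected) made up 52.4%, 33.9%, 73.7% and 40.1% of fibroblasts, and tendon-like fibroblasts 9.73%, 25.4%, 18.3% and 26.8%. Hoxa10 was at 45.5 CPM in progenitor-like and 45.0 CPM in other fibroblasts of WT quadriceps, and at 33.8 and 28.6 CPM in mdx5cv quadriceps. Hoxb4 was at 23.4 and 27.3 CPM in WT diaphragm and at 21.1 and 21.7 CPM in mdx5cv diaphragm. Hoxc10 was at 60.5 against 87.3 CPM in WT quadriceps, a ratio of 0.692 (0.539 to 0.889), and at 95.5 against 81.4 CPM in mdx5cv quadriceps, a ratio of 1.17 (1.03 to 1.33). A state difference of Hoxc10 thus had opposite signs in the 2 genotypes and was small beside the muscle difference. Within single states or under other processing, Hoxa4, Hoxa7, Hoxb5, Hoxb6, Hoxb7, Hoxc11, Hoxd4 and Hoxd8 lost a muscle call in at least 1 setting, keeping their direction.

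Muscle stem cells, the Pax7 precursors of myofibres, came from other embryonic tissue than fibroblasts and also had more Hoxa9, Hoxa10, Hoxc8, Hoxc9 and Hoxc10 in quadriceps. The gate gave 360, 232, 106 and 215 stem cells, of which 14.2% to 31.7% lay near the limits of the gate. In WT, 10 members passed, 0 were called higher in diaphragm and 5 higher in quadriceps, against 2.92% and 7.29% of 7886 genes. These WT cells held 777462 UMIs in quadriceps and 245130 in diaphragm, so the minimum of 10 pooled UMIs favoured genes high in quadriceps. Hoxb2, Hoxb3 and Hoxb4 did not reach it in WT, and the WT counts cannot show how many members were higher in diaphragm. In mdx5cv, 18 passed, 9 were higher in diaphragm and 6 in quadriceps, against 1.36% and 6.48% of 11090 genes. Members called in both genotypes were Hoxa9, Hoxa10, Hoxc8, Hoxc9 and Hoxc10, and all were higher in quadriceps. Of 10 members with a value in both genotypes, 8 had the same direction, the exceptions being Hoxa7 and Hoxc4. Hoxa9 was at 27.0, 22.5, 0 and 1.75 CPM, at least 2.21-fold and 12.9-fold (4.12 to 64.8) higher in quadriceps. Hoxa10 was at 121, 23.0, 0 and 0 CPM, at least 9.88-fold and at least 13.2-fold. In these genes, as in fibroblasts, both quadriceps libraries were above both diaphragm libraries. Hoxc8 was at 95.2, 39.8, 0 and 8.73 CPM, at least 7.78-fold and 4.56-fold (2.60 to 8.54). Hoxc9 was at 59.2, 36.2, 0 and 3.49 CPM, at least 4.83-fold and 10.4-fold (4.54 to 29.2). Hoxc10 was at 107, 71.5, 0 and 0 CPM, at least 8.72-fold and at least 40.9-fold. The WT diaphragm stem cells were few, and 0 UMIs there allow up to 15.05 CPM by the exact interval.

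The Hoxb cluster was almost absent from quadriceps stem cells and present in diaphragm stem cells. Its summed UMIs were 2, 1, 13 and 118, or 2.57, 0.510, 53.0 and 68.7 CPM. Hoxb2 had 1, 0, 4 and 42 UMIs, Hoxb3 had 0, 0, 6 and 28, and Hoxb4 had 0, 0, 2 and 32. In mdx5cv these 3 genes were at least 15.96-fold, 10.6-fold and 12.2-fold higher in diaphragm. Quadriceps fibroblasts, by comparison, carried 20.6 and 14.8 CPM of the cluster. The Hoxd cluster was near 0 in stem cells of either muscle, with 3, 7, 0 and 2 UMIs. In stem cells the Spearman coefficient between paralogue number and log2 ratio was -0.890 over 10 genes in WT and -0.914 over 18 in mdx5cv. The WT value covers only members that passed the minimum. Among them Hoxa9, Hoxa10, Hoxc8, Hoxc9 and Hoxc10 entered as bounds, with 0 UMIs in diaphragm. In endothelial cells it was 0.0621 in WT and -0.568 in mdx5cv, over 14 genes each. Within endothelial clusters it was 0.6 in WT and 0.8 in mdx5cv over 4 Hoxa genes. Over Hoxb genes it was -0.25 in WT (7 genes) and -0.929 in mdx5cv (8 genes). In mdx5cv immune cells it was -0.598 over 17 genes, and -0.657, 0.5 and -0.4 within Hoxa, Hoxb and Hoxc. The number of calls rests on few cells. With mitochondrial UMIs limited to 5%, 63, 17, 16 and 40 stem cells remained, and 1 member was called higher in quadriceps in WT and 2 in mdx5cv.

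**Figure D3:**
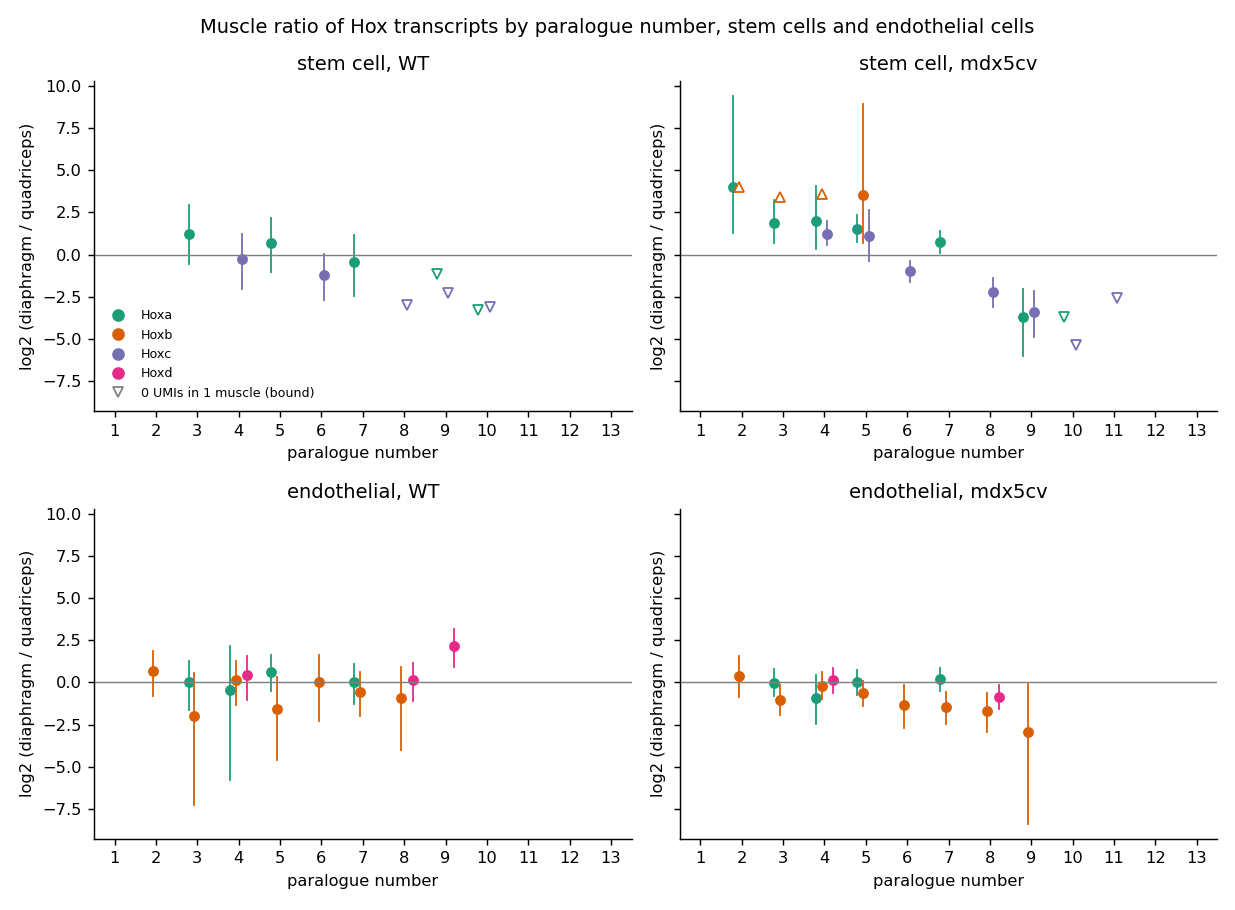
Log2 ratio of diaphragm to quadriceps CPM against paralogue number in stem cells (top) and endothelial cells (bottom), WT left and mdx5cv right, with clusters in colour, exact 95% counting intervals as bars and open triangles as bounds where 1 muscle had 0 UMIs. Stem cell points fall from above 0 to below -1 at Hoxa9 and beyond, while most endothelial points lie within their intervals of 0.

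Endothelial cells, which line the vessels, had no Hox gene called between the muscles in both genotypes, and none called in opposite ways. The gate gave 2660, 448, 77 and 370 of them. In WT, 20 members passed and 1 was called, Hoxd9 higher in diaphragm, against 5.18% of 11576 genes higher in diaphragm and 3.38% higher in quadriceps. The share of passing members called in WT, 5%, was below the 8.56% of all genes called either way. Hoxd9 was at 10.7, 0.766, 47.1 and 1.81 CPM, and its 9 UMIs in WT diaphragm came from 6 of 77 cells. In mdx5cv, 14 passed, none was called higher in diaphragm and 5 were higher in quadriceps, all of them Hoxb genes (Hoxb3, Hoxb6, Hoxb7, Hoxb8, Hoxb9), against 1.88% and 4.66% of 10615 genes. Of 13 members with a value in both genotypes, 8 had the same direction. The largest UMI count among them was that of Hoxb7, at 45.9, 35.2, 31.4 and 12.7 CPM, 2.77-fold (1.498 to 5.46) higher in quadriceps in mdx5cv and 1.46-fold (0.663 to 4.03) in WT. The spread over libraries differed from gene to gene. Hoxb2 was at 19.8, 9.96, 31.4 and 12.7 CPM and Hoxb5 at 30.7, 36.8, 10.5 and 23.6 CPM, neither called, with 6 and 2 UMIs in WT diaphragm. Hoxa7 was at 35.5, 30.6, 36.6 and 34.5 CPM, Hoxa3 at 25.9, 23.7, 26.1 and 23.6 CPM, and Hoxd4 at 23.5, 26.0, 31.4 and 28.1 CPM. For Hoxa3 the mdx5cv ratio of diaphragm to quadriceps was 0.994 (0.567 to 1.73), so that a difference of 2-fold lies outside the interval. In WT diaphragm 77 cells gave few UMIs, and 0 UMIs there allow up to 19.3 CPM by the exact interval.

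Cluster use differed between endothelial cells and fibroblasts, for Hoxc in both muscles and for Hoxb in quadriceps. In quadriceps the Hoxb cluster summed to 194 and 191 CPM in endothelial cells against 20.6 and 14.8 CPM in fibroblasts, and the Hoxc cluster to 11.1 and 4.59 CPM against 213 and 225 CPM. In diaphragm the Hoxb sums were 136 and 103 CPM in endothelial cells and 109 and 96.8 CPM in fibroblasts, and the Hoxc sums 0 and 2.72 CPM against 54.9 and 39.5 CPM. Hoxb7 was 55.8-fold (18.9 to 273) and 25.1-fold (13.9 to 47.5) higher in endothelial cells than in fibroblasts of quadriceps. Hoxb5 was 14.0-fold (6.93 to 32.9) and 46.5-fold (22.6 to 108) higher. Hoxb4 was 13.1-fold (6.49 to 30.9) and 7.61-fold (4.66 to 12.4) higher, while in diaphragm its ratios were 1.30 (0.474 to 2.83) and 1.06 (0.678 to 1.59). Hoxd4 had 123 UMIs in WT quadriceps endothelial cells and 0 in the fibroblasts of that library. Hoxc10 was low in endothelium, at 3.43, 1.53, 0 and 0 CPM. The share of free RNA in endothelial counts was at most 8.33%, 24.0%, 2.84% and 11.4%, and its part in such low values was not tested.

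**Figure D4:**
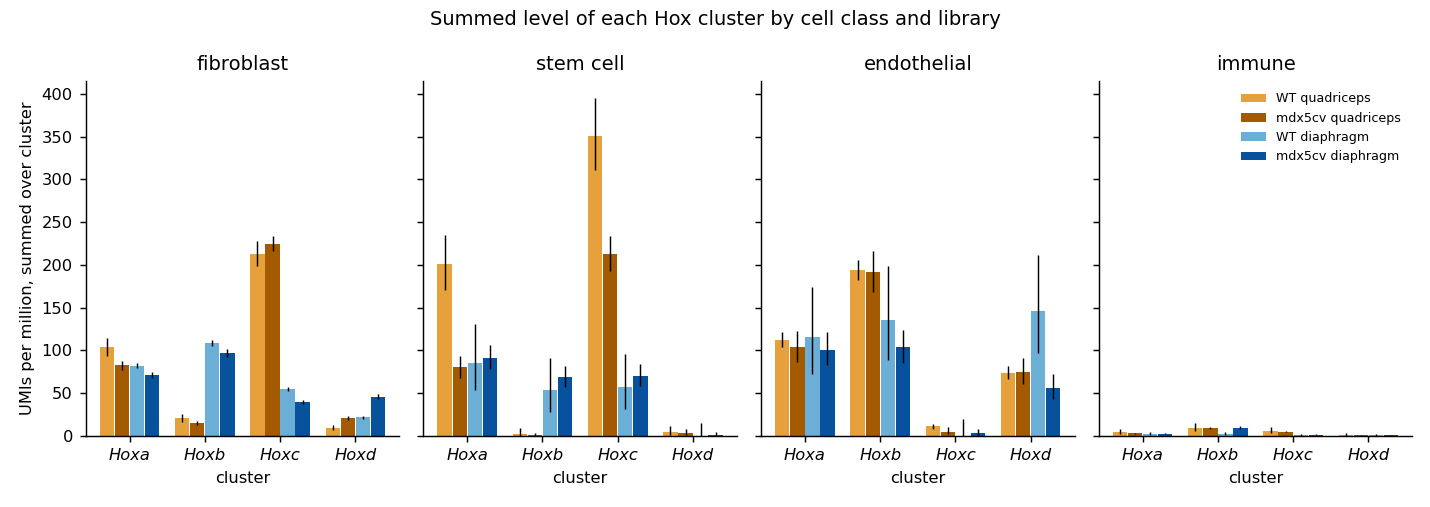
Summed CPM of each Hox cluster in fibroblasts, stem cells, endothelial cells and immune cells, with 1 bar per library and exact 95% counting intervals. Hoxc bars are tallest in quadriceps fibroblasts and stem cells and near 0 in endothelial cells, Hoxb bars are near 0 in quadriceps stem cells, and all bars are low in immune cells.

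Mural cells, the pericytes and smooth muscle of vessels, were too few to compare, with 126, 27, 9 and 14 cells. In WT, 3 members passed (Hoxa10, Hoxb2, Hoxc10) and none was called, against 4.11% higher in diaphragm and 3.98% higher in quadriceps of 4723 genes. In mdx5cv none passed, where 3.84% and 2.67% of 2476 genes were called. Hoxa10 had 14, 4, 0 and 0 UMIs and Hoxc10 had 16, 4, 0 and 0, so that every UMI of these genes was in quadriceps.

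Immune cells carried 19.2, 16.9, 4.82 and 14.0 CPM of Hox transcripts in all, far below the other classes. In WT, 1 member passed, Hoxb4, and was called higher in quadriceps, against 7.52% of 11162 genes higher in diaphragm and 9.07% higher in quadriceps. In mdx5cv, 17 passed, 1 was called higher in diaphragm (Hoxb5) and 5 higher in quadriceps (Hoxa10, Hoxc6, Hoxc8, Hoxc9, Hoxc10), against 4.5% and 3.35% of 15100 genes. The 5 are genes abundant in quadriceps fibroblasts, and Hoxc10 was at 1.88 CPM in mdx5cv quadriceps immune cells against 87.2 CPM in fibroblasts. The estimated share of free RNA in those immune counts was at most 2.65%. After its subtraction the Hoxb5 call was lost. In cells with at most 1 marker detected of any other class (the purer gate), 1 member was called higher in quadriceps. The causes of these calls were not tested. Hoxb4 stood apart from the 5 genes, at 7.34, 6.76, 0.688 and 6.33 CPM, above its 2.19 and 3.42 CPM in quadriceps fibroblasts. Its UMIs were mainly in myeloid cells, at 7.19, 6.84, 0.736 and 6.70 CPM from 12, 242, 1 and 111 UMIs. The immune cells of WT diaphragm included 248 myeloid cells among 827, and those of WT quadriceps 376 among 425. The value of myeloid cells in WT diaphragm lies under the limit of 3 UMIs, which is 2.21 CPM there. The part of the mix of immune cells in the WT call was not tested.

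Between genotypes, few Hox genes of fibroblasts were called, and those higher in mdx5cv were all of the Hoxd cluster. These comparisons use the same 4 libraries as those between muscles. The muscle difference itself differed by genotype beyond counting error for 3 of 17 members (Hoxb5, Hoxc5, Hoxc6). This was a smaller share than the 33.7% of 13134 genes with at least 3 UMIs in each library. In quadriceps, 24 members passed, 2 (Hoxd4, Hoxd8) were called higher in mdx5cv and none higher in WT, against 10.6% and 8.42% of 14033 genes. In diaphragm, 20 passed, 3 (Hoxd3, Hoxd4, Hoxd9) were higher in mdx5cv and 1 (Hoxc5) was higher in WT, against 8.46% and 7.21% of 15413 genes. The members higher in mdx5cv diaphragm were a larger share of those that passed than the share of all genes, on 3 genes, and the other counts were near or below it. Hoxd4 had 76 and 150 UMIs in diaphragm (3.15-fold, 2.38 to 4.21) and 0 and 18 in quadriceps, where its bound of at least 1.92-fold is under 2-fold and the call rests on the 0 UMIs of WT. For Hoxd8 the mdx5cv to WT ratio in quadriceps was 2.35 (1.52 to 3.81), and the ratio in diaphragm, 1.93 (1.70 to 2.18), was not called. That of Hoxd9 was 1.52 (0.505 to 6.14), not called, and 2.12 (1.55 to 2.92). Hoxd3 was 3.07-fold (1.85 to 5.19) higher in diaphragm. Hoxc5 was at 14.6 CPM in WT and 7.29 CPM in mdx5cv diaphragm. In progenitor-like fibroblasts alone no member was called higher in mdx5cv quadriceps. Hoxd8 was at 5.62 CPM in those of WT quadriceps and 10.9 CPM in those of mdx5cv quadriceps, and Hoxd4 had 0 and 7 UMIs. The progenitor-like state made up a smaller share of fibroblasts in mdx5cv than in WT in both muscles. Its part in the genotype calls was not tested.

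**Figure D5:**
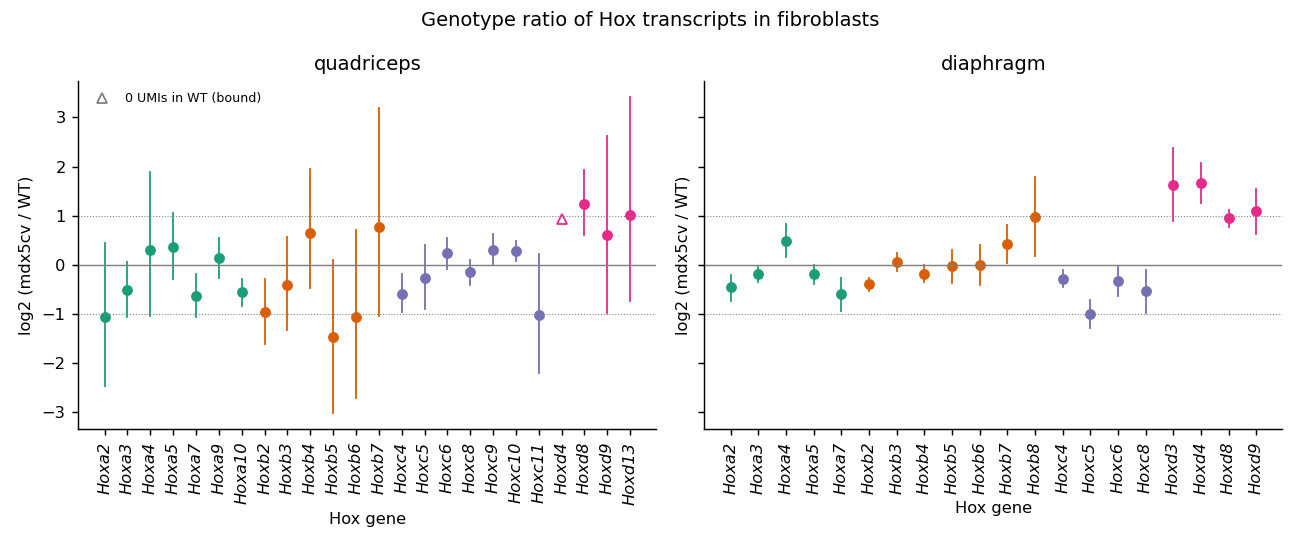
Log2 ratio of mdx5cv to WT CPM for each Hox gene that passed in fibroblasts of quadriceps (left) and diaphragm (right), with exact 95% counting intervals, dotted lines at 2-fold and an open triangle for a bound. In diaphragm, Hoxd3, Hoxd4, Hoxd8 and Hoxd9 lie between 0.95 and 1.66, and most other genes lie within 2-fold of 0.

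Hox proteins bind DNA with partners of the Pbx, Meis and Pknox families, and 9 of 9 of these cofactors passed in fibroblasts. In WT, 1 was called, Meis2, and in mdx5cv 2, Meis1 and Meis2, all higher in diaphragm. The medians of the log2 ratio over the 9 were 0.20 and -0.08. Meis2 was at 30.7, 53.7, 111 and 132 CPM in fibroblasts, 3.61-fold (2.99 to 4.40) and 2.46-fold (2.25 to 2.69) higher in diaphragm. In stem cells it had 0, 4, 30 and 250 UMIs, at 0, 2.04, 122 and 145 CPM, and in mdx5cv it was 71.3-fold (27.5 to 264) higher in diaphragm. Endothelial cells had Meis2 at 1.53, 3.83, 94.1 and 18.1 CPM, 61.7-fold (25.5 to 164) and 4.74-fold (1.73 to 16.2) higher in diaphragm. Meis1, its close relative, was at 25.8, 22.8, 41.2 and 49.9 CPM in fibroblasts, 1.60-fold and 2.19-fold higher in diaphragm.

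Of the non-coding transcripts of the clusters, Hoxaas2, Hoxaas3, Hoxb3os and Hoxd3os1 were called higher in diaphragm fibroblasts in both genotypes. Over all genes tested, 3.51% were called higher in diaphragm in WT and 3.17% in mdx5cv. The share of all genes called in both genotypes is not given. In fibroblasts Hoxaas2 had diaphragm to quadriceps ratios of 5.58 (1.87 to 27.4) for WT and 3.36 for mdx5cv. That of Hoxaas3 was 4.54 (1.74 to 16.9) and 5.91 (3.08 to 12.7). Both lie in the Hoxa cluster. For Hoxb3os, of the Hoxb cluster, the ratios were 2.54 (1.43 to 4.98) and 4.91 (3.001 to 8.51), and Hoxd3os1 was 2.86-fold (1.57 to 5.80) and 3.36-fold higher. Hotairm1, transcribed from the low-numbered end of Hoxa, was at 11.5, 6.85, 20.4 and 17.8 CPM and was called in mdx5cv (2.60-fold) but not in WT (1.77-fold). Hotair, of the Hoxc cluster, had 1, 3, 0 and 0 UMIs, and Hottip had 0 in all 4 libraries. Evx2, beyond the high end of Hoxd, had 6 UMIs in WT quadriceps fibroblasts and 0 in WT diaphragm. The sources used here do not say whether counting used strand, so reads of an antisense gene and of its partner may not be told apart.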

How the data were processed

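Mononuclear cells of 4 libraries, 1 per muscle and genotype, were profiled with 10x Genomics 3' v3.1 chemistry. The deposited unfiltered matrices hold raw UMI counts per gene and barcode. Cell Ranger 5.0.0 and mm10 are named in the submitters' processing notes, and Cell Ranger 4 per the file headers. The sources used here do not name the annotation.

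Barcodes with at least 1000 UMIs, 500 genes and at most 15% mitochondrial UMIs were taken as cells. A cell took the class with the most of 10 markers detected, if at least 3 and at least 2 more than in any other class. No doublet caller was run, and cells with near-equal markers of 2 classes stayed unassigned (295, 395, 139 and 278). Counts were summed per class and library and scaled to CPM. Ratios have exact conditional 95% intervals, which cover counting error only. No fold was given where both sides had 0 UMIs. The same was done where 1 side had 0 and the other's CPM did not exceed that of 3 UMIs in the library with 0. Before use, the call rule was run on counts simulated from a pooled fibroblast profile, with 4-fold changes and counting error only. It recovered 90.7% to 100% of the changes and called 0.49% to 0.6% of unchanged genes. The simulation held no variation between animals or libraries, so it cannot show how the calls fare against such variation.

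Values in every library are given for members called the same way in both genotypes in fibroblasts or in stem cells, and other members by counts or chosen after their values were seen. The members, lists and alternatives were chosen with earlier results of these data known. An item withheld for evaluation is not reported here. Positions are from GENCODE M21 (GRCm38). Python 3.11.15, numpy 2.4.6, scipy 1.17.1, pandas 2.3.3 and matplotlib 3.10.9 were used.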

Additional observations from a re-analysis of the deposited data

Results flagged for a closer look

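The difference between muscles in fibroblasts differed by genotype for 3 members, by an interval of the difference of log2 ratios (mdx5cv minus WT) that excluded 0. It was 1.44 (0.03 to 2.85) for Hoxb5, -0.729 (-1.41 to -0.05) for Hoxc5 and -0.565 (-0.99 to -0.14) for Hoxc6. These intervals cover counting error only. The 3 of 17 members compared were a smaller share than the 33.7% of all 13134 genes with such an interval. Hoxb5 rests on 8 and 9 UMIs in the quadriceps libraries.

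Mesothelial cells, which line the body cavities and were gated in diaphragm only (71 WT and 33 mdx5cv cells), enter none of the comparisons above and carried Hox transcripts. Hoxa5 was at 70.4 CPM in WT and 80.8 CPM in mdx5cv, above its 21.9 and 19.1 CPM in diaphragm fibroblasts. Hoxa7 was at 44.3 CPM and Hoxb2 at 26.1 CPM in WT, and Hoxc4 was at 57.7 CPM in mdx5cv. Paralogues 9 to 13 had 0 UMIs in these cells in both libraries. The summed fibroblast markers in these cells were 9632 and 7918 CPM, against 35326 and 29571 CPM in fibroblasts of the same libraries, and their part in these values was not tested.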

How the results depend on the processing

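In fibroblasts the counts of members called between muscles stayed within 1.5 times under all 12 alternatives, and no single member reversed. The paralogue number against log2 ratio in fibroblasts, Spearman rho, WT, was -0.696 under the purer gate and -0.651 in progenitor-like fibroblasts. The paralogue number against log2 ratio in fibroblasts, Spearman rho, mdx5cv, was -0.693 in progenitor-like fibroblasts. Median-of-ratios scaling shifted log2 ratios in fibroblasts by -0.14 (WT) and -0.16 (mdx5cv), and by -0.33 in WT stem cells, and ended the calls of Hoxa7. Where 1 side had 0 UMIs and the other was at or under the same floor, no value was given.

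Other counts were smaller and moved. In stem cells, the 5% mitochondrial limit left 1 member higher in quadriceps in WT and 0 higher in diaphragm and 2 higher in quadriceps in mdx5cv. Thinning left 0 and 2 in mdx5cv. In WT, 1 member was higher in diaphragm at 2000 UMIs and 2 with no low-count filter, which also gave 1 for WT mural and 2 for WT endothelial cells. In mdx5cv endothelial cells 2 (mitochondrial limit), 3 (thinned) and 3 (median of ratios) were higher in quadriceps. In WT immune cells thinning left 0. In mdx5cv immune cells, 0 were higher in diaphragm under the mitochondrial limit, both other gates, thinning and free RNA subtraction, and 2 with no filter, and 1 was higher in quadriceps under the mitochondrial limit, the purer gate and thinning.

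Between genotypes in quadriceps fibroblasts, 1 was higher in mdx5cv under the mitochondrial limit, thinning and in other fibroblasts, and 0 in progenitor-like fibroblasts. In the same comparison 1 was higher in WT under the mitochondrial limit, purer gate, median of ratios and free RNA subtraction, and 3 at 1.5-fold or in progenitor-like fibroblasts. In diaphragm fibroblasts 5 were higher in mdx5cv under the purer gate or at 1.5-fold, and 0 higher in WT under the stricter and purer gates and free RNA subtraction, and 2 at 1.5-fold. The causes were not tested.

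Without thinning, the shares of fibroblasts with a UMI of paralogues 1 to 4, 5 to 8 and 9 to 13 were 17.6%, 34.6% and 44.8% in WT quadriceps, 23.4%, 50.3% and 63.2% in mdx5cv quadriceps, 53.7%, 31.3% and 1.24% in WT diaphragm, and 55.0%, 36.9% and 3.08% in mdx5cv diaphragm. No paired analysis was possible because each group was 1 library and the labels give no replicate numbers. Few cells limit the stem, mural and WT diaphragm endothelial comparisons.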

Other observations

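Hoxb1, with 6 UMIs in all cells of the 4 libraries together, had 9, 2, 4 and 5 UMIs in barcodes with 10 to 100 UMIs. Glial cells, 58, 24, 5 and 5 of them, had 18, 14, 2 and 3 Hox UMIs, of which 11, 8, 1 and 3 were of the Hoxb cluster. Within diaphragm fibroblasts of mdx5cv, Hoxc8 was at 1.91 CPM in progenitor-like and 4.53 CPM in other cells, a ratio of 0.421 (0.226 to 0.749), and in WT diaphragm at 5.02 and 3.88 CPM, a ratio of 1.29 (0.831 to 2.10).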
